A study of Sus scrofa with 4 samples.

Results

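Laiwu is a fat indigenous Chinese pig breed, and the deposited libraries profiled RNA from its longissimus dorsi (LD) muscle, the long muscle of the back, in castrated wild-type males of 4 ages (60 d, 120 d, 240 d and 400 d). Each age was given as 1 sample whose file held 3 libraries, here numbered as replicates 1 to 3 in the order of their columns, from 12 pigs in all that were reared under similar conditions. The genes described here were selected on these values themselves. In each of the 3 libraries labelled 120 d their FPKM (a fragment count divided by transcript length and by the mapped fragments of the library) was above that of all 9 other libraries, their mean FPKM at 120 d was over 1.5 times the highest mean of the other ages, and their mean count at 120 d was at least 50. Of 22658 listed features, 194 met the first condition, 132 the first and the second, and 55 all 3. The genes named in the study's main tables were to be left out, and none of them had met the rule. The same rule found 119 genes for 60 d, 18 for 240 d and 82 for 400 d. Of the 55 genes, 46 could be given a symbol from Ensembl or from the study's gene lists, and 9 could not and are given by identifier. Genes without a symbol and MEOX1, COL8A1, SMAD2, PIK3R3, HAUS7, PNCK, PACS1 and NCALD were singled out after their values were seen.

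Between birth and maturity, pig LD muscle changes from a growing tissue, in which satellite cells still add nuclei to the fibres, to one in which fat cells fill the space between fibres. Muscle taken at slaughter also holds vessels, nerve, connective tissue and resident immune cells, and it reacts to handling. Immediate early genes are transcription factors and their regulators that are switched on within minutes of a stimulus such as exercise, adrenaline or stretch, and several genes of glucose and insulin handling follow feeding and fasting. Because whole tissue was sequenced, fewer cells of a type and less RNA per cell cannot be told apart.

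Total counts were 9713813 to 13325327 per library. Genes of adult muscle fibres summed to between 28578 and 85864 FPKM in all 12 libraries, so the label of the tissue was met everywhere. The ages of the libraries were taken from the sample labels. The FPKM that the study's supplementary lists give for 400 d were those of the libraries labelled 120 d, with a median absolute log2 difference of 0.0199 over 243 genes, and the lists' 60, 120 and 240 d were those labelled 400, 240 and 60 d (0.0198 to 0.01996, against at least 0.495 for any other pairing). The 55 genes are the same under both, because the 3 libraries stay together, but the age attached to them differs. Within the ages, total counts ranked as the study's read totals per sample do when the labels are followed, apart from the closest pair of libraries at 240 d, and did not when the ages of the lists are used. In 120 d replicate 2, all 6 general leukocyte markers were more than 2 times the mean of replicates 1 and 3, and their summed FPKM was 104.3 against 28.3 and 31.0. Libraries of other ages also stood apart in some lists. The leukocyte sum was 4.59 FPKM in 400 d replicate 2, against 16.5 and 16.5 in replicates 1 and 3. The fibroblast sum was 2153 FPKM in 60 d replicate 1, against 801 and 693 in replicates 2 and 3. Ratios of genes high in 120 d replicate 2 are also given without that library.

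Most of the 55 genes were expressed at a low level. Their mean FPKM at 120 d had a median of 4.99, with 28 genes under 5 and 11 at 20 or more, and their mean count at 120 d had a median of 149.3. The ratio of the mean FPKM at 120 d to that of the next age had a median of 1.81 and a highest value of 5.80, and 22 genes were at 2 or more. The margin was narrower than the means show. The lowest 120 d library exceeded the highest of the 9 others by a factor whose median was 1.15, it was under 1.1 in 21 genes, and it passed 1.5 in 7. Near the threshold of 1.5, the ratio was 1.502 for UNC13B, 1.52 for MBP and 1.52 for PXDC1 inside it, and 1.497 for ENSSSCG00000017558, 1.48 for DCUN1D4 and 1.48 for LPAR1 outside it. Without 120 d replicate 2, the ratio was 1.39 for UNC13B, 1.49 for MBP and 1.37 for PXDC1.

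**Figure D1:**
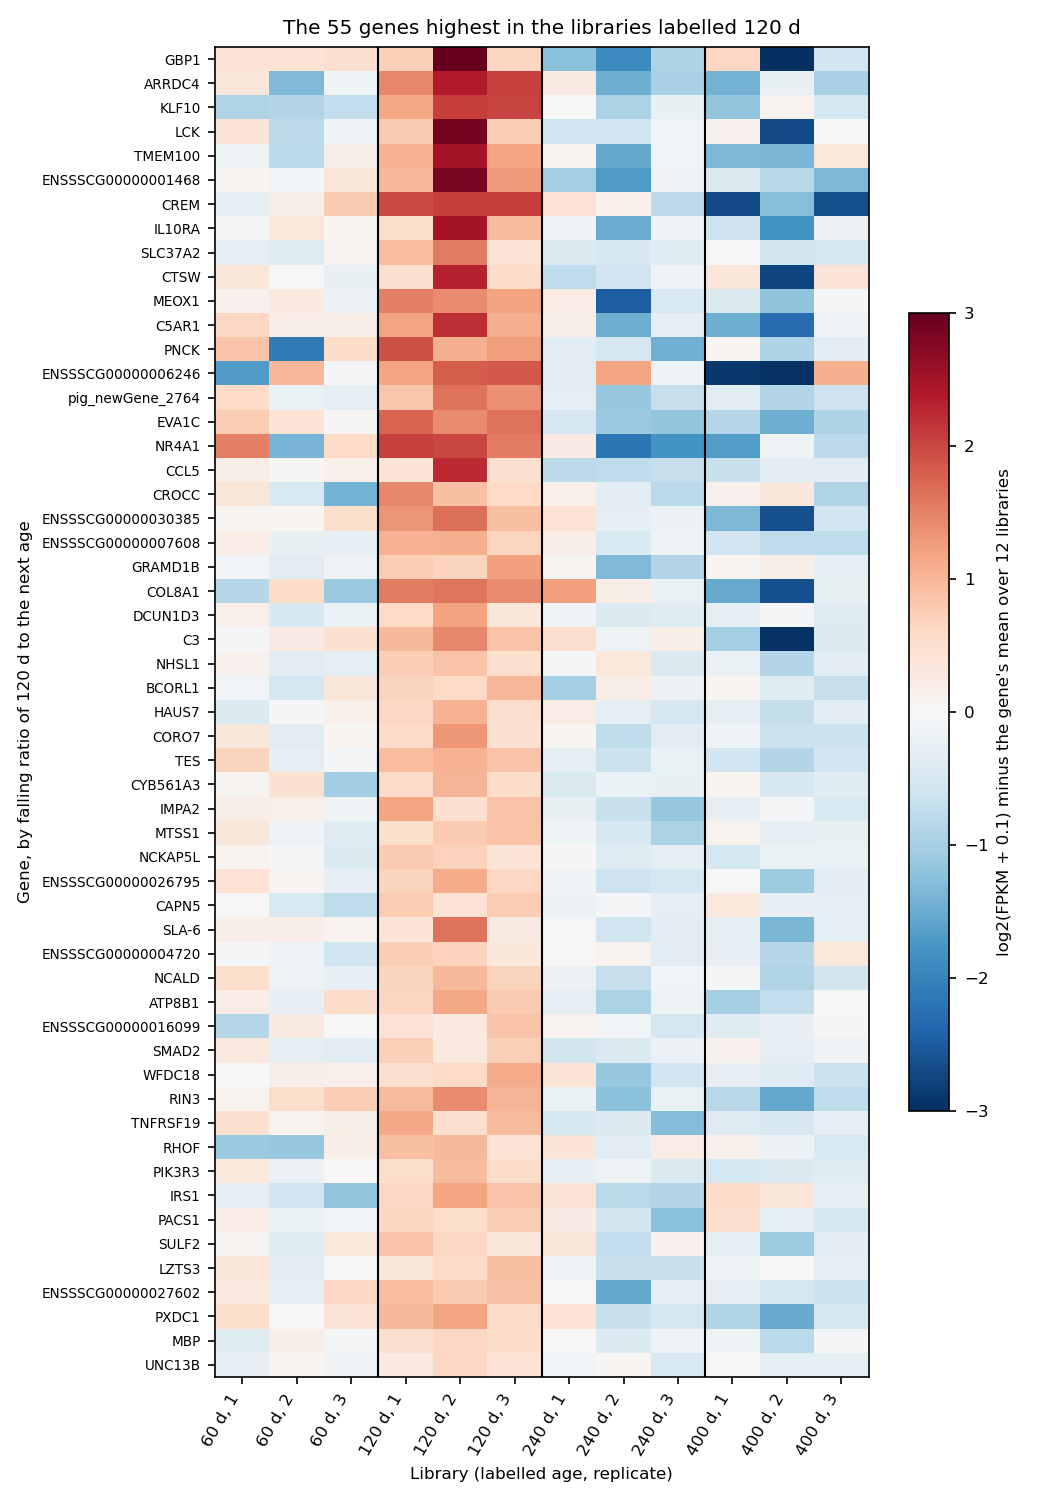
Each row is 1 of the 55 genes, ordered by the ratio of mean FPKM at 120 d to the next age, and each column is 1 library. Colour gives log2(FPKM + 0.1) minus the gene's mean over the 12 libraries, with values beyond 3 in either direction drawn at the end of the scale. The 3 columns of 120 d are the highest in every row, with the darkest cells of GBP1, LCK, IL10RA, CTSW and CCL5 in replicate 2.

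The immediate early genes among the 55 were CREM, NR4A1 and KLF10. CREM encodes the cAMP responsive element modulator, a transcription factor of the cAMP pathway whose short inducible form ICER shuts off the genes that cAMP has switched on. It lies on chromosome 10 of the Sscrofa10.2 build, on the plus strand, from 63438270 to 63504728. CREM FPKM was 79.9, 85.3 and 84.8 in 120 d replicates 1 to 3, compared with 16.5, 22.6 and 34.9 at 60 d, 27.4, 22.3 and 11.6 at 240 d, and 3.05, 8.32 and 3.17 at 400 d. The groups were far apart, and CREM had both the widest margin of the 55 genes, with the lowest 120 d library 2.29 times the highest other, and the smallest spread at 120 d, a coefficient of variation of 3.61%. Its mean at 120 d was 83.3 ± 3.0 FPKM (SD, n = 3), 3.38 times that at 60 d, and the ratio was 3.34 without replicate 2.

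NR4A1, an orphan nuclear receptor that adrenergic signals and contraction induce in muscle, was the gene with a symbol at the highest level. Its annotated locus spans positions 1 to 1787 of the unplaced scaffold GL892233.1. NR4A1 FPKM was 588.8, 569.7 and 413.1 in the 120 d libraries and 408.4, 54.2 and 215.3 at 60 d. The lowest 120 d library was thus only 1.01 times the highest 60 d library, while the 240 d libraries (169.4, 31.7 and 40.8) and the 400 d libraries (44.3, 129.2 and 83.2) stayed below. The mean at 120 d was 523.9 ± 96.4 FPKM and that at 60 d 226.0 ± 177 (SD, n = 3 each).

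KLF10, a zinc finger repressor induced by transforming growth factor beta, lies on the minus strand of chromosome 4 from 37443340 to 37453430. KLF10 FPKM was 4.97, 9.39 and 9.06 at 120 d, while the other 9 libraries lay between 0.90 and 2.34. Its ratio was 4.57, and 4.11 without replicate 2.

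Of the 28 tested immediate early genes, 15 were higher and none lower at 120 d than at 400 d, and 3 higher and none lower than at 240 d. These counts include genes that were selected as high at 120 d. CREM, NR4A1 and KLF10 were all called against 400 d, and CREM and KLF10 against 240 d. Of all features, 8.32% were higher and 5.55% lower than at 400 d, and 2.91% and 2.21% than at 240 d. Against 60 d none of the 28 genes and 0% of all features was called, and the median log2 difference of the 28 was 0.53. The summed level of the 29 genes measured was highest in 120 d replicate 2 (3786 FPKM) but in replicate 3 (1401 FPKM) it was below 60 d replicates 1 (2679 FPKM) and 3 (1676 FPKM). ATF3, a stress-induced factor of the ATF family, was at 498.9, 827.1 and 232.7 FPKM at 120 d and at 353.9 in 240 d replicate 2, so that the ages overlapped. FOS, a subunit of AP-1, was at 142.3, 341.7 and 66.1 FPKM at 120 d and reached its highest value, 726.0, in 60 d replicate 1. DUSP1, a phosphatase of MAP kinases, was lower at 120 d (82.4, 86.8 and 94.0 FPKM) than in all the libraries of 60 d and of 240 d.

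**Figure D2:**
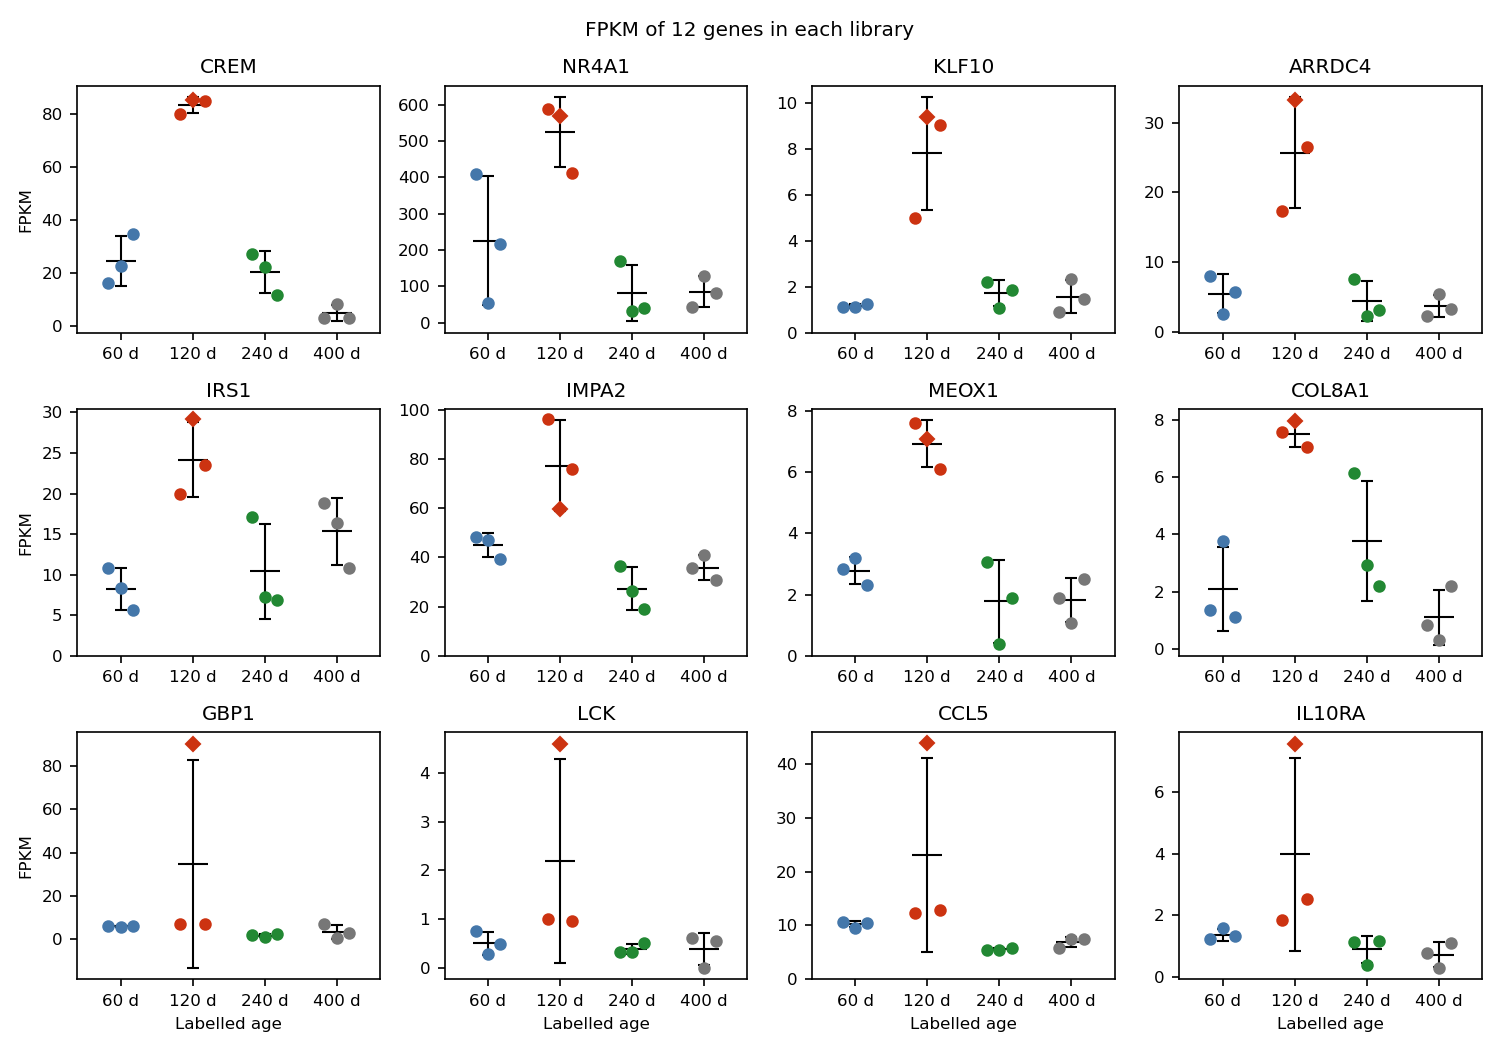
FPKM of 12 of the 55 genes against labelled age, with 1 point per library, the mean as a horizontal bar and the SD of 3 libraries as the error bar; the diamond marks 120 d replicate 2. In CREM, MEOX1 and COL8A1 the 3 points at 120 d lie close together, while in GBP1, LCK, CCL5 and IL10RA the diamond stands far above the 2 circles beside it.

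ARRDC4 was the 1 member of the list of fasting and glucose response genes, and IRS1, PIK3R3 and IMPA2 are described beside it although they belong to no list. ARRDC4, an alpha-arrestin of the TXNIP type that glucose induces and that lowers glucose uptake, lies on the minus strand of chromosome 7 from 87586099 to 87598954. ARRDC4 FPKM was 17.3, 33.2 and 26.5 at 120 d and at most 8.03, in 60 d replicate 1, elsewhere. All 3 libraries were above the 9 others by at least 2.16 times, the ratio of means was 4.74, and it was 4.05 without replicate 2. IRS1, the docking protein that passes the signal of the insulin receptor to phosphatidylinositol 3-kinase, differed in its next age. IRS1 FPKM was 19.9, 29.2 and 23.5 at 120 d, followed by 18.9, 16.4 and 10.8 at 400 d, with 10.8, 8.38 and 5.61 at 60 d. The lowest 120 d library was 1.06 times 400 d replicate 1, and the ratio of 1.58 was 1.41 without replicate 2. PIK3R3, a regulatory subunit of the same kinase, was at 2.60 ± 0.47 FPKM (SD, n = 3) at 120 d against 1.63 ± 0.32 (SD, n = 3) at 60 d, and its ratio of 1.59 was 1.43 without replicate 2. IMPA2, an inositol monophosphatase, was at 96.3, 59.6 and 75.9 FPKM at 120 d, below its other 2 libraries in replicate 2, and at most 48.3 elsewhere.

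Among the 17 tested genes of the fasting and glucose response, 2 were higher and 4 lower at 120 d than at 240 d, where 2.91% of all features were higher and 2.21% lower. The higher genes were PFKFB3 (log2 4.17, edgeR adjusted p = 0.031) and ARRDC4, which was selected as high at 120 d. The lower genes were PDK4 (log2 -5.08), PPARGC1A (log2 -4.18), UCP3 and FBXO32. PFKFB3, ARRDC4, PDK4 and PPARGC1A were not called without 120 d replicate 2 or 3, or without 240 d replicate 2 or 3. Against 60 d none of the 17 genes was called, and the median log2 difference of the list was -0.15. UCP3, a mitochondrial carrier that rises when muscle burns fat, was at 5.11, 16.7 and 9.54 FPKM at 120 d compared with 71.5, 147.7 and 121.0 at 240 d (log2 -3.45, edgeR adjusted p = 0.022). FBXO32, the ubiquitin ligase atrogin-1 of muscle wasting, was at 5.21, 17.9 and 7.88 FPKM at 120 d compared with 85.5, 121.8 and 214.2 at 240 d (log2 -3.80, edgeR adjusted p = 0.028). The study's main tables list both genes among the most down-regulated from 120 d to 240 d, which is the opposite direction. In the study's supplementary lists, 120 d and 240 d were the libraries labelled 240 d and 60 d. The libraries labelled 120 d and 240 d did not overlap in either gene. Both calls were lost without 120 d replicate 3 (adjusted p = 0.060 for UCP3 and 0.074 for FBXO32, edgeR), without 240 d replicate 2 (0.076 and 0.081) and without 240 d replicate 3 (0.091 and 0.098). FBXO32 was also not called without 120 d replicate 1 or replicate 2. Without replicate 2, UCP3 was the 1 gene of this list still called, when 31 of all features were higher and 19 lower. The log2 differences of both genes stayed between -4.45 and -3.08 in all of these fits.

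The following genes belong to no list, except MBP, which is in that of Schwann cells and nerve. MEOX1, a homeobox factor of the somites, was at 7.60, 7.07 and 6.10 FPKM at 120 d and at most 3.19 elsewhere. EVA1C, a membrane protein that binds heparin, was at 3.36, 2.65 and 3.11 FPKM at 120 d, between 0.96 and 1.66 at 60 d, and at most 0.63 at the older ages. Both genes thus kept a gap between 120 d and every other library, with the lowest 120 d library 1.91 and 1.60 times the highest other. COL8A1, a short-chain collagen of vessel walls, was at 7.52 ± 0.46 FPKM (SD, n = 3) at 120 d, and 1 library of 240 d came near it at 6.15. In CPM (counts scaled to a common library size with TMM factors) COL8A1 was at 13.3, 12.0 and 8.02 at 120 d, the last of them below the 9.04 of 60 d replicate 2. TES, a focal adhesion protein, was at 4.89 ± 0.36 FPKM (SD, n = 3) at 120 d against 2.795 ± 1.06 (SD, n = 3) at 60 d. SMAD2, a mediator of transforming growth factor beta and activin signals, had no gap to speak of, since its lowest 120 d library was at 3.20 FPKM and 60 d replicate 1 at 3.19. MBP, a protein of the myelin sheath, was at 34.5, 37.5 and 36.0 FPKM at 120 d and at most 28.3 elsewhere. The list that holds MBP did not follow it. The summed FPKM of its 3 genes was 54.4 to 61.5 at 120 d and 63.1 to 76.5 at 60 d. Their median log2 difference, 120 d over 60 d, was -0.96. COL8A1, SMAD2 and MBP did not meet the rule in CPM, where the lowest 120 d library was 0.89 and 0.87 times the highest other for COL8A1 and SMAD2, and the ratio of means was 1.32 for MBP.

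Members of the immune lists were uneven across the 3 libraries of 120 d, and for GBP1, CCL5, CTSW and SLA-6 the ratio fell below 1.5 without replicate 2. GBP1 encodes a guanylate binding protein that interferon gamma induces, lies on the plus strand of chromosome 4 from 139618567 to 139667343, and had the highest ratio of all 55 genes. GBP1 FPKM was 7.22, 90.3 and 6.97 in 120 d replicates 1 to 3, compared with 5.90, 5.87 and 6.24 at 60 d and 6.84 in 400 d replicate 1. Replicates 1 and 3 were thus barely above the other ages, and the ratio of 5.80 became 1.18 without replicate 2. GBP1 overlaps GBP2 in the annotation and belongs to a family of similar genes between which the counting could split reads.

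The same library was the highest for the T cell and cytotoxic genes. LCK, the kinase that starts signalling from the T cell receptor, was at 1.01, 4.60 and 0.97 FPKM at 120 d and at most 0.75 elsewhere. CCL5, a chemokine made by T and NK cells, was at 12.4, 44.0 and 12.9 FPKM at 120 d and at most 10.7 elsewhere. CTSW, a cathepsin of cytotoxic lymphocytes, was at 3.73, 13.2 and 3.83 FPKM at 120 d and at most 3.40 elsewhere. In all 3 genes, replicates 1 and 3 of 120 d were close to each other in FPKM and a little above the other ages. Their ratios of 4.34, 2.26 and 2.56 became 1.96, 1.23 and 1.3999 without replicate 2. In CPM, CCL5 was at 12.0 and 15.1 in 120 d replicates 1 and 3, against 14.6 in 60 d replicate 1, and it did not meet the rule. LCK overlaps ZBTB8B and CTSW overlaps FIBP in the annotation.

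The other immune genes act in antigen presentation, cytokine reception and complement. IL10RA, the receptor chain that binds interleukin 10, was at 1.84, 7.56 and 2.52 FPKM at 120 d and at most 1.59 elsewhere. SLA-6, a class I gene of the pig's major histocompatibility complex with close copies nearby, was at 12.3, 29.5 and 11.4 FPKM at 120 d and at most 10.9 elsewhere. Their ratios of 2.89 and 1.66 became 1.59 and 1.11 without replicate 2. C5AR1, the receptor of the complement fragment C5a on phagocytes, was at 5.14, 10.7 and 4.78 FPKM at 120 d and at most 3.48 elsewhere. C3, the central complement protein, was at 6.19, 8.67 and 5.78 FPKM at 120 d and at most 4.46 elsewhere. For C5AR1 and C3 the ratio stayed at 1.73 and 1.62 without replicate 2. TMEM100, a membrane protein of endothelium that bone morphogenetic proteins induce, shared the pattern with 13.3, 36.5 and 14.7 FPKM at 120 d and at most 7.96 elsewhere, and its ratio of 3.86 became 2.52.

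Over the 55 genes, replicate 2 was the highest 120 d library in 34, replicate 1 in 13 and replicate 3 in 8. Among the 1951 features with a mean count of at least 50 at 120 d and their highest mean at that age, the share with replicate 2 on top was 54.1%, against 61.8% of the 55, and among all 9068 features with such a count it was 36.1%. In 9 of the 55 genes replicate 2 was more than 2 times the mean of the other 2 libraries (GBP1, LCK, CTSW, CCL5, IL10RA, ENSSSCG00000001468, TMEM100, SLA-6 and C5AR1), or 16.4%, compared with 15.3% of the 1951 features and 5.19% of the 9068. Replicate 1 or replicate 3 reached this in none of the 55. Leaving out replicate 2, 42 of the 55 genes still had a ratio over 1.5, and 40 still met the whole rule. The genes whose ratio fell below 1.2 were GBP1 and SLA-6.

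**Figure D3:**
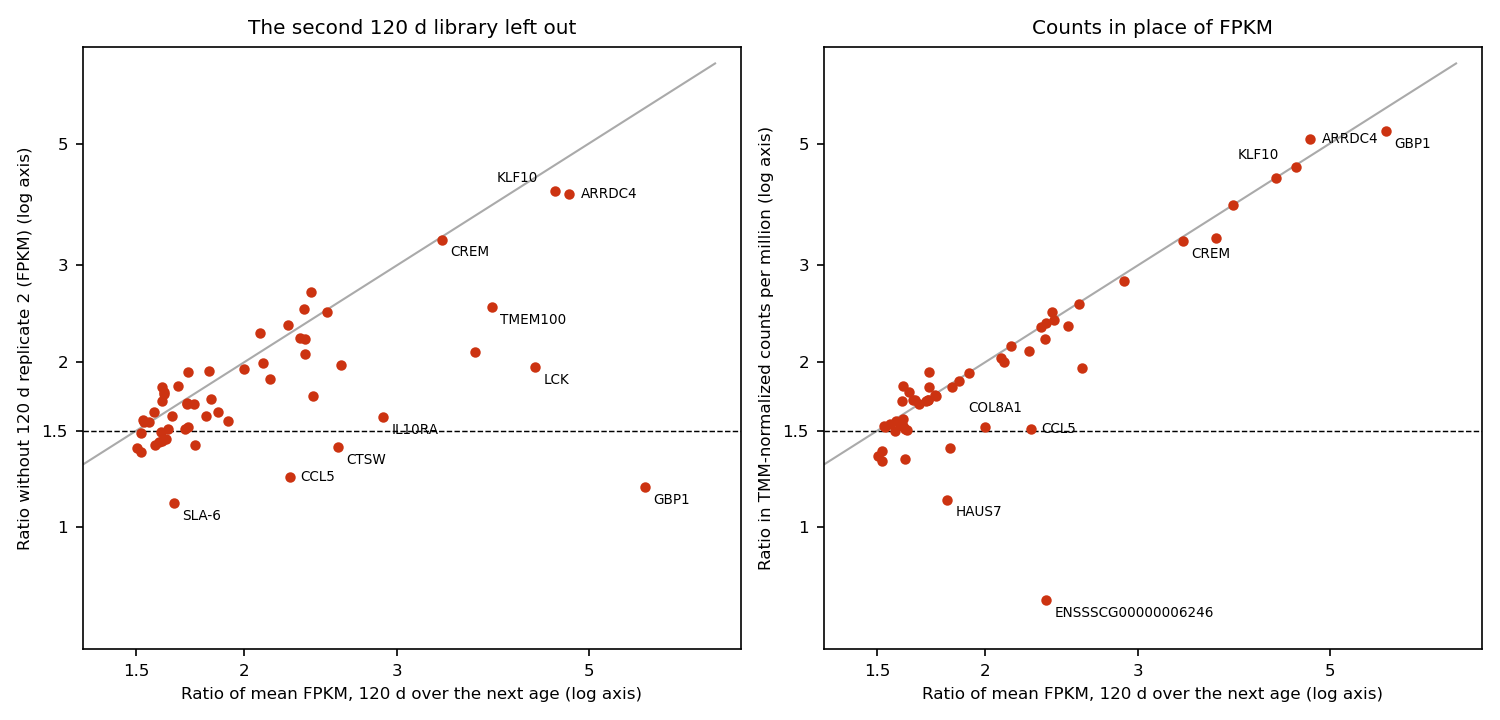
Both panels plot the 55 genes with the ratio of mean FPKM at 120 d to the next age on the x axis, on log axes, with the line of equality in grey and 1.5 as the dashed line. On the left, the y axis is the ratio without 120 d replicate 2, and GBP1 falls from 5.80 to 1.18 while CREM stays at 3.34. On the right, the y axis is the ratio in TMM-scaled counts (CPM), and ENSSSCG00000006246 falls from 2.35 to 0.74.

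The markers of immune cells moved with these genes, and their part in the result was not tested. Of 13 T cell genes measured, 12 were more than 2 times higher in 120 d replicate 2 than in the mean of replicates 1 and 3, and so were 11 of 12 genes of NK and cytotoxic cells, 14 of 16 of macrophages and monocytes, 9 of 10 of MHC class II and 34 of 40 of the interferon response. None of the T cell or macrophage markers was at 0 in all 3 libraries of 120 d, and NCR1 of the cytotoxic list was listed at 0 in them. The summed T cell markers were at 8.4, 42.7 and 10.9 FPKM at 120 d, while 60 d lay between 7.6 and 8.4, 240 d between 4.6 and 7.2, and 400 d between 1.2 and 7.9. The macrophage sum was 164.1, 561.7 and 224.9 FPKM at 120 d, while 60 d lay between 156.3 and 267.5, 240 d between 76.7 and 118.9, and 400 d between 28.6 and 79.6. In 120 d replicates 1 and 3 the macrophage sum was thus within the range of 60 d, and the T cell sum at its upper end or above it. Red cell genes went the other way in this library (31.2 FPKM, against 217.3 and 140.3), and the 7 fibroblast genes were at 1449 FPKM, against 1017 and 1114.

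**Figure D4:**
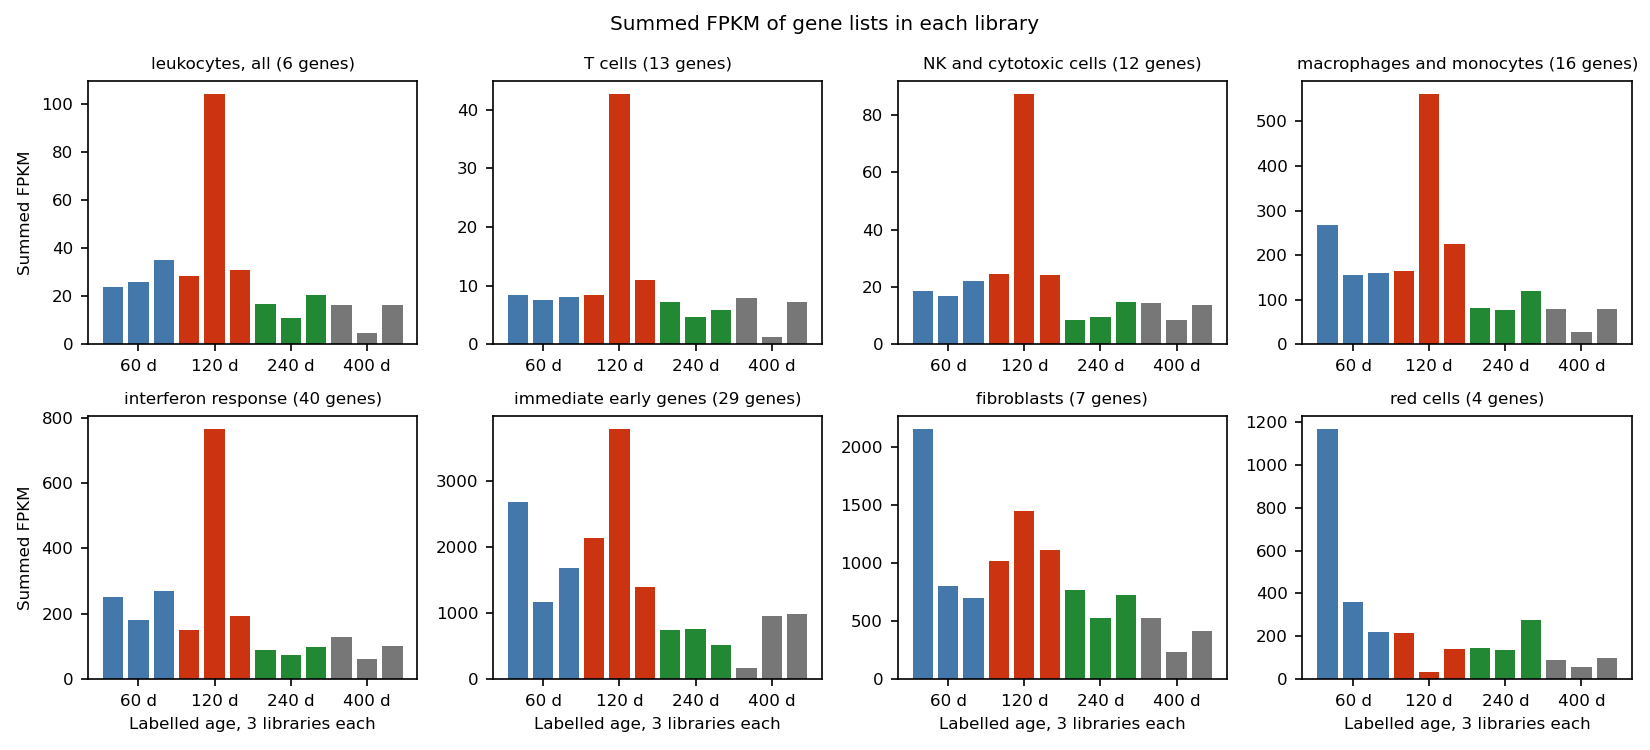
Bars give the summed FPKM of 8 gene lists in each of the 12 libraries, grouped by labelled age with replicates 1 to 3 from left to right. In the 5 lists of immune cells and interferon response the middle bar of 120 d stands alone, at 104.3 FPKM for the leukocyte list, and in the red cell list it is the lowest bar, at 31.2.

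FPKM and counts differed for some of the 55 genes. Cufflinks estimates FPKM from transcripts, so that a change in the transcript to which fragments are assigned alters FPKM without a change in count. In CPM, 41 of the 55 genes met the same rule. Of the other 14, 9 were not above all 9 other libraries and 8 had a ratio of at most 1.5. ENSSSCG00000006246, on the minus strand of chromosome 4 from 82556102 to 82565485, had the highest FPKM of the 55. Its FPKM was 442.0, 677.9 and 686.2 at 120 d and between 24.6 and 439.3 elsewhere, yet its counts were 225, 197 and 215 at 120 d and 284, 334 and 212 at 60 d. In CPM its ratio was 0.74, so that 60 d and not 120 d was the highest age. The transcript length that FPKM and count together imply varied 24.0-fold over the libraries in this gene and 5.04-fold in COL8A1, compared with a median of 1.06-fold over the 7120 features with at least 50 counts in every library. COL8A1 was not among those features, with 20 counts in 400 d replicate 2 and 45 in 240 d replicate 2. Of the 55 genes, 18 were among them, and in 6 of these 18 the implied length varied more than 1.5-fold. The share of all 7120 features that did so was 7.26%. HAUS7, a subunit of the augmin complex of the spindle, had a ratio of 1.81 in FPKM and 1.12 in CPM, and CCL5 2.26 and 1.51. Neither met the rule in CPM, where the lowest 120 d library was 0.71 and 0.82 times the highest other. For CREM (3.32), KLF10 (4.53), ARRDC4 (5.10), NR4A1 (2.32) and IRS1 (1.56), the ratio in CPM was close to that in FPKM. The number of genes that met the rule in FPKM and in CPM, each with and without replicate 2, was 30.

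The next highest age was 60 d for 44 of the 55 genes, 240 d for 6 and 400 d for 5. The share of 80.0% for 60 d compares with 68.6% of the 1951 features whose highest mean was at 120 d. The lowest age was 400 d for 30 genes and 240 d for 19. The comparisons of 60, 240 and 400 d hold no 120 d library. They were tested on the counts with edgeR's quasi-likelihood test over 13314 features, with Benjamini-Hochberg adjustment and a threshold of 0.05. The rule had set an upper limit on the FPKM of these libraries too, so they were not free of the selection. The 55 genes are therefore given beside the share of all features. Nothing in the labels ties the 12 pigs to litters or days, and p-values measure the spread between these libraries. The 60 d comparisons share the 60 d libraries.

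From 60 d to 400 d, 8 of the 55 genes were higher at 60 d and none was lower, where 12.7% of all tested features were higher and 10.8% lower. The share of 14.5% was thus close to that of all features. The median log2 difference of the 55 genes, 60 d over 400 d, was 0.51 against 0.07 for all features, and 46 of the 55 were above 0 compared with 53.3% of all. CREM had the largest difference, 2.23 ± 0.41 (log2, SE, edgeR adjusted p = 0.0046), followed by EVA1C with 1.75 ± 0.37 (edgeR adjusted p = 0.0078). RIN3, an exchange factor of the endosomal GTPase Rab5, was higher by 1.56 ± 0.30 (edgeR adjusted p = 0.0054), PXDC1 by 1.58 ± 0.37, C3 by 1.43 ± 0.47 and TES by 0.85 ± 0.27. The other 2 were ENSSSCG00000006246, whose highest age in CPM was 60 d and not 120 d, and ENSSSCG00000030385. IRS1 had the lowest value, -0.90 ± 0.36 (edgeR adjusted p = 0.088), and did not pass.

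From 60 d to 240 d, 4 of the 55 genes were higher at 60 d and none was lower, or 7.27%, where 5.83% of all features were higher and 5.51% lower. They were EVA1C with 1.60 ± 0.37 (log2, SE, edgeR adjusted p = 0.023), TNFRSF19, a receptor of the tumour necrosis factor family, with 1.22 ± 0.35 (edgeR adjusted p = 0.043), RIN3 with 1.02 ± 0.30 (edgeR adjusted p = 0.047) and ENSSSCG00000006246. In CPM the last of these was highest at 60 d and not at 120 d. CREM did not differ detectably between 60 and 240 d (0.24 ± 0.39, edgeR adjusted p = 0.70). GBP1 had the largest difference, 1.89, but its SE was 1.003 and it did not pass (edgeR adjusted p = 0.22). Neither count was firm. The 4 genes of 60 against 240 d became 0 without 60 d replicate 1, 240 d replicate 2 or 240 d replicate 3, and 1 when only the 6 libraries of these ages were fitted. The 8 genes of 60 against 400 d became 5 without 400 d replicate 1, 4 without 400 d replicate 2, and 5 in the fit of 6 libraries.

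Between 240 and 400 d edgeR called none of the 55 genes and 0% of all features, although 4 of the 55 and 1176 of all features had an unadjusted p under 0.05. The DESeq2 Wald test called 58 features, of which 1 was among the 55. This was CREM, with a log2 difference of 1.99 ± 0.41 in edgeR (240 d over 400 d, SE, edgeR adjusted p = 0.27).

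**Figure D5:**
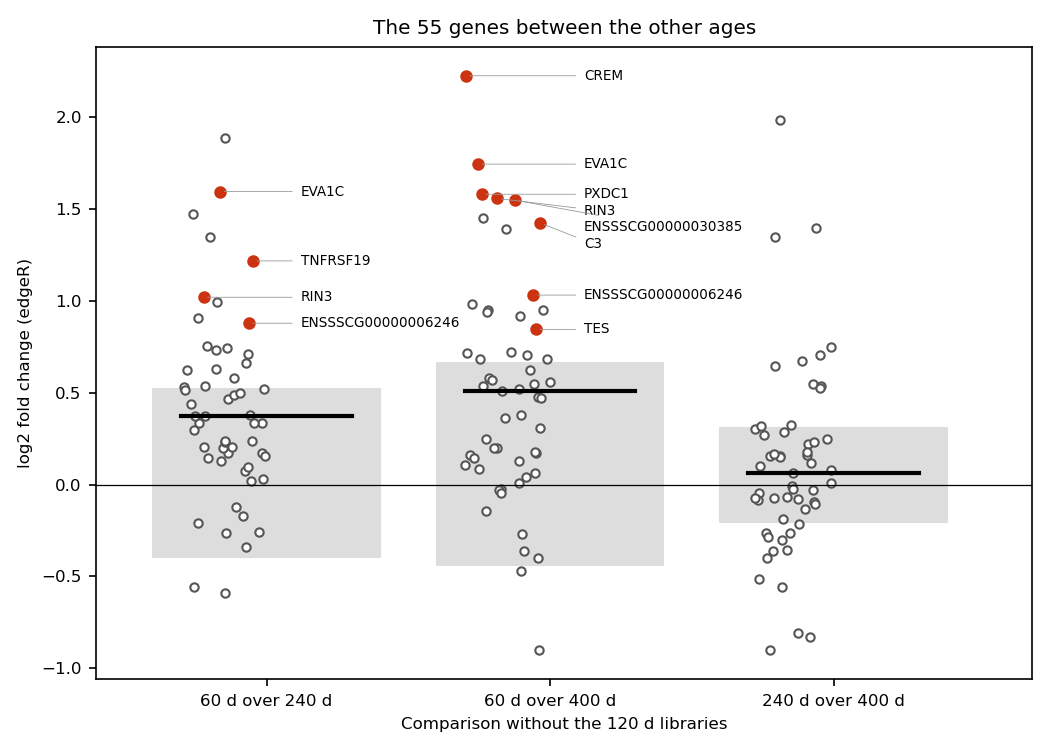
Points are the log2 fold changes of the 55 genes from edgeR in the 3 comparisons that leave out 120 d, filled and named where the adjusted p was under 0.05. The thick bar is the median of the 55 genes and the grey band the middle 50% of all 13314 tested features. The medians were 0.37, 0.51 and 0.06, and every filled point lies above 0.

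The comparisons that include 120 d used the libraries on which the genes were selected, and they are given as a description. Of the 55 genes, edgeR called 25 higher at 120 d than at 240 d, where 2.91% of all features were higher and 2.21% lower. Against 400 d it called 37 of the 55 higher, where 8.32% of all features were higher and 5.55% lower. Against 60 d it called none and 0% of all features. In that comparison 37 of the 55 genes were higher and 1 lower at an unadjusted p under 0.05, as were 1384 of all features in either direction, and the DESeq2 Wald test called 70 features with 6 of the 55 among them. Leaving out other single libraries moved these counts as much or more. The 25 genes against 240 d became 0 without 120 d replicate 3, 240 d replicate 2 or 240 d replicate 3, 3 without 120 d replicate 2, 13 without 400 d replicate 1 or 3, and 14 without 120 d replicate 1. In the first 3 of these fits at most 5 of all features were called in either direction. The 37 genes against 400 d became 12 without 400 d replicate 2, 14 without 120 d replicate 2, and 22 and 21 without 400 d replicates 1 and 3. These 3 comparisons share the 120 d libraries.

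The lists of immune and immediate early genes were counted in the same comparisons, members included. In those of T cells, NK and cytotoxic cells, chemokines, cytokine receptors and MHC class I, 3 of 10, 2 of 8, 3 of 15, 5 of 12 and 3 of 9 tested genes were higher at 120 d than at 400 d and none was lower. Of all features, 8.32% were higher and 5.55% lower in that comparison. Without replicate 2 only 1 cytokine receptor of these 5 lists was still called. Of the macrophage and monocyte list, which holds none of the 55 genes, 13 of 16 tested genes were higher at 120 d than at 400 d and none was lower, with a median log2 difference of 2.12 compared with -0.01 for all features. For the interferon response 14 of 35 were higher (median 1.79), for the complement list 8 of 14 (median 2.06) and for the immediate early genes 15 of 28 (median 2.53), with none lower in these lists. Without replicate 2 these counts became 5 of 16, 2 of 34, 5 of 14 and 9 of 28. Over all features the number higher at 120 d than at 400 d also fell, from 1108 to 336. Against 240 d, 5 of 16 macrophage genes, 11 of 35 of the interferon response, 3 of 14 of complement and 3 of 28 immediate early genes were higher. Without replicate 2 the counts were 0, 0, 0 and 1. Over all features 388, or 2.91%, were higher at 120 d than at 240 d, and 31 without replicate 2. Against 60 d no list gene was called by edgeR, and the DESeq2 Wald test called 7. From 60 to 400 d, 8 of 16 macrophage genes, 13 of 35 of the interferon response, 5 of 14 of complement and 13 of 28 immediate early genes were also higher at 60 d. In that comparison 12.7% of all features were higher at 60 d and 10.8% lower. C1QA, a chain of the complement component C1q that macrophages make, was at 39.8, 153.2 and 60.1 FPKM at 120 d, 82.6, 38.4 and 32.5 at 60 d, and 15.9, 5.47 and 15.8 at 400 d.

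The 55 genes were spread over 17 chromosomes, with 6 on chromosome 7 and 3 on unplaced scaffolds. Within 1 Mb of each other lay PACS1 and CTSW on chromosome 2 (201 kb apart), C3 and ENSSSCG00000030385 on chromosome 2 (162 kb), KLF10 and NCALD on chromosome 4 (372 kb), and HAUS7 and PNCK on chromosome X (168 kb). PNCK, a calmodulin-dependent kinase, was at 19.9, 10.9 and 12.5 FPKM at 120 d and at most 9.43 elsewhere. The annotated spans of 13 of the 55 genes overlapped another listed feature, and the library kit does not mark strand, so that reads of such genes and of their neighbours cannot be told apart by strand. The transcripts had a median length of 3101 bases, close to the 3050 bases of the 9068 features with a mean count of at least 50 at 120 d.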

How the data were processed

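The authors sequenced LD muscle libraries made with a kit that does not mark strand, mapped the reads to Sscrofa10.2 with TopHat2 and estimated expression with Cufflinks, while the submitters' processing notes name Bowtie 0.12.2, Cufflinks and a mouse build. The authors deposited whole-number fragment counts per gene, not normalized, and FPKM values from Cufflinks. A further column headed as normalized was not used.

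The rule was applied to the deposited FPKM and count columns. Members and gene lists were chosen with earlier results of these data known. Differences between ages were tested on the counts with edgeR 4.0.16 in R 4.3.3 (quasi-likelihood, TMM, all 12 libraries, mean of at least 10 counts at any age, adjusted p under 0.05). The pipeline was tested on simulated data. Named genes were, per list, up to 6 members highest at 120 d and up to 4 others, the 10 members with the largest ratio, the 10 with the highest FPKM, 3 on each side of the threshold, and up to 10 called per comparison without 120 d, to which further genes were added where stated. Alternatives were DESeq2 1.42.0, other filters and thresholds, TMM-normalized CPM, other pseudocounts, and leaving out each library. Leaving out replicate 2 for single genes and lists, and the ages of the supplementary lists, were added after seeing the data. Promoter motifs were not searched.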

Additional observations from a re-analysis of the deposited data

How the results depend on the processing

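The rule found 94 genes with a ratio threshold midway between 1 and 1.5, and 22 with a ratio over 2, against 55. Between 40 and 75 genes met it with a count minimum of 100 or 20, 46 in TMM-normalized CPM (41 of them among the 55), and 55 with the ages of the supplementary lists. Leaving out 1 library gave 55 to 164 genes, with the most without 60 d replicate 1 (164), 120 d replicate 3 (131), and 120 d replicate 1 or 60 d replicate 3 (111 or more each). Of the 55 genes, 40 were still found without 120 d replicate 2.

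For 60 against 240 d, the 4 genes called were 2 with no count filter, 1 in the fit of 6 libraries, 0 at an adjusted p under 0.01 with a log2 difference of at least 1, and 0 to 3 without single libraries. For 60 against 400 d, the 8 genes were 5 in the fit of 6 libraries, 4 at the stricter threshold and 4 to 9 without single libraries, and 1 gene was lower at 60 d without 240 d replicate 1. DESeq2's Wald test called 1 gene between 240 and 400 d. Over all features the Wald test called 1241 higher and 1115 lower at 60 d than at 240 d, against 776 and 733 by edgeR, and 1028 higher and 739 lower at 120 d than at 240 d, against 388 and 294. In the fit of 6 libraries edgeR called 140 higher and 98 lower at 60 d than at 240 d.

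Of the list genes, edgeR called 0 at 120 d against 60 d, 1 with no count filter, and the Wald test 7. Against 240 d, 54 were called, 142 by the Wald test, 0 at the stricter threshold and 0 to 89 without single libraries, with 0 without 120 d replicate 3 or 240 d replicate 3, 1 without 240 d replicate 2, 7 without 120 d replicate 2, and 19 to 24 without 240 d replicate 1, 400 d replicate 1 or 400 d replicate 3. Against 400 d, 124 were called, 14 at the stricter threshold and 17 to 143 without single libraries, with 17 without 400 d replicate 2, 42 without 120 d replicate 2, and 58 and 67 without 400 d replicates 3 and 1.

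The log2 ratio of mean expression at 120 d to the highest other age kept its sign in all 55 genes with other pseudocounts, with medians, and without each 120 d library. In CPM it reversed in 1 of the 55, ENSSSCG00000006246, to -0.44. The cause of the other changes was not tested. No paired analysis was possible because each age was sampled from different pigs. The labels give 1 sample per age and no replicate numbers. With 3 libraries per age, a difference between 2 ages cannot reach an exact permutation p below 0.1, and genes near the minimum of 50 counts carry the most counting error.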
